A study of Arabidopsis thaliana with 9 samples.

Results

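The genes described here are 100 Arabidopsis genes, known in the array's gene table by a locus name alone, whose signal was higher in leaves after 48 h with BrvC and close to control after 6 h. They were chosen from 14745 locus-named genes, out of 16550 genes with an entry of their own. The choice used the measured values. The group mean at 48 h had to exceed that of control by at least 0.8 on the log2 scale, the 6 h mean had to lie within 0.5 of control, and all 3 arrays at 48 h had to lie above the other 6 arrays. The levels and differences of these 100 genes between the 3 groups are therefore a description, without a test.

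RNA came from detached leaves of 30-day-old Col-0 plants, with 10 to 15 leaves pooled in a sample and 1 Affymetrix array for each. BrvC is a brevicompanine, a fungal alkaloid, and it was given at 50 µM in MS medium in the dark for 6 h (3 arrays) or 48 h (3 arrays). The 3 control arrays came from leaves in the same medium with 0.05% DMSO. No DMSO content is labelled for the BrvC samples, so a difference in solvent cannot be told apart from BrvC. Replicates are biological ones by their labels. No time in the dark is labelled for the controls, and the labels used here give no time of day. The effects of BrvC, of the hours in the dark after detachment and of the time of day therefore cannot be told apart.

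A leaf that is cut off and kept in the dark stops fixing carbon and begins to draw on its own lipids, proteins and cell walls. Transcripts that climb late in such leaves are known to include enzymes of the glyoxylate cycle and of sugar and cell wall turnover, while photosynthesis transcripts decline. A locus name such as AT1G44020 gives the chromosome and the order along it, and says nothing of the protein.

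Of the 100 genes, 97 stood in RefSeq's table of TAIR10.1 genes and 3 did not (AT3G19660, AT2G14692 and AT2G07672). A descriptive name stood there for only 2 of them, AT2G43120 as PIRIN2 (PRN2) and AT2G31110 as TRICHOME BIREFRINGENCE-LIKE 40 (TBL40). No role is stated for the other 98, and a planned grouping by keywords of function was left out for this reason.

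At 48 h the difference from control ran from 0.80 to 2.58 on the log2 scale, with a median of 1.08, which is 2.11-fold. In 41 genes it was below 1, in 17 at least 1.5, and in 3 at least 2. At 6 h the median difference from control was 0.01, with 52 genes above and 48 below. Over all locus-named genes the median difference was -0.06 at 48 h and -0.11 at 6 h. In whole leaves more cells of a type and more RNA in each cell cannot be told apart, for any gene described here. The median level of the 100 genes lay between 4.58 and 4.88 in the control arrays, between 4.64 and 4.82 in the 6 h arrays and between 5.86 and 6.02 in the 48 h arrays.

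**Figure D1:**
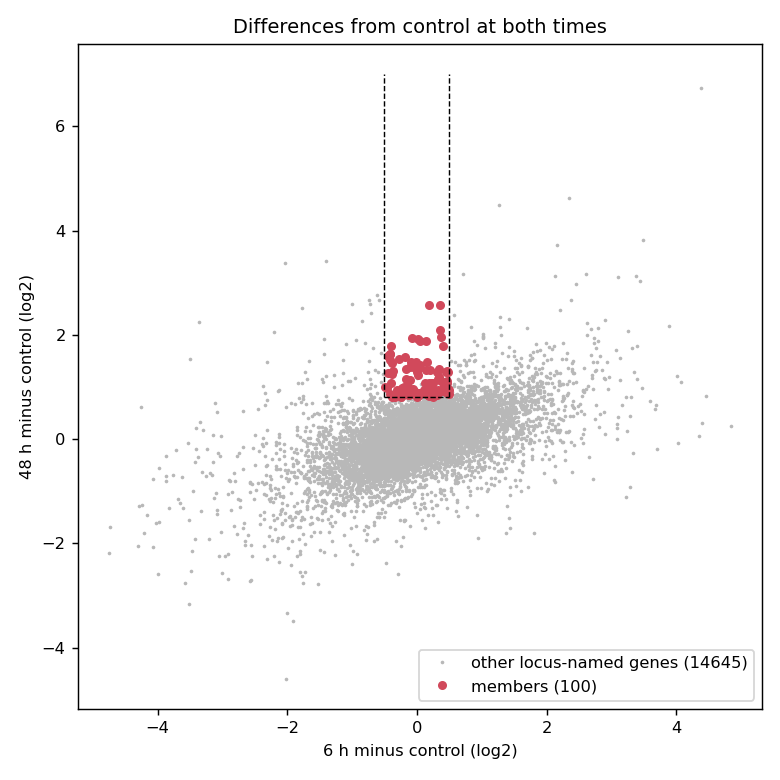
Difference from control at 6 h (horizontal axis, log2) and at 48 h (vertical axis, log2) for 14745 locus-named genes, 1 point each. The 100 members (red) lie inside the dashed limits of 0.5 at 6 h and 0.8 at 48 h; grey points inside the limits failed the condition on the order of the arrays.

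AT1G44020 and AT4G32630 stood furthest from control. AT1G44020 measured 2.94, 2.51 and 2.74 in the control arrays, 2.83, 2.85 and 3.07 at 6 h, and 5.19, 5.27 and 5.48 at 48 h. All 3 arrays at 48 h were high, and control and 6 h overlapped. Its difference from control at 48 h was 2.58 (SE 0.17), or 5.98-fold. AT4G32630 measured 3.32, 3.73 and 3.75 in control, 3.86, 4.11 and 3.91 at 6 h, and 5.93, 6.00 and 6.58 at 48 h, a difference of 2.57 (SE 0.21). Here the 6 h arrays already lay just above every control, and the step from 6 h to 48 h was the larger one (2.21).

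AT2G45360 measured 5.69, 6.23 and 4.97 in control, 5.78, 6.08 and 6.12 at 6 h, and 8.49, 7.54 and 7.16 at 48 h. Its arrays at 48 h were spread over more than 1 unit, and its mean of 7.73 ± 0.68 there stood against 5.63 ± 0.64 in control (SD, n = 3). AT3G03460 was tighter, with 3.05, 3.13 and 3.22 in control, 3.22, 3.46 and 3.84 at 6 h, and 5.05, 4.95 and 5.26 at 48 h. Its 6 h values reached down to the control range and none came near those of 48 h. AT4G02950 measured 1.97, 3.06 and 3.67 in control, 2.89, 2.93 and 2.66 at 6 h, and 4.43, 4.65 and 5.43 at 48 h. The control arrays of this gene differed more among themselves than the 48 h arrays did.

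AT4G18940 measured 3.69, 3.79 and 3.27 in control, 3.04, 3.69 and 4.06 at 6 h, and 5.41, 5.72 and 5.39 at 48 h. Control and 6 h overlapped fully. AT2G43150 had the highest control level of the group and a narrow spread, with 10.12, 9.91 and 9.84 in control, 9.99, 10.21 and 10.09 at 6 h, and 11.91, 11.78 and 11.82 at 48 h. The difference of 1.88 (SE 0.16) came on top of a signal that was already high. AT2G41730 measured 2.17, 1.87 and 3.05 in control, 2.80, 2.23 and 2.21 at 6 h, and 3.86, 3.55 and 5.30 at 48 h. It had the largest SD of the group at 48 h (0.93), because replicate 3 stood above the other 2.

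AT5G54040 measured 4.81, 4.04 and 4.47 in control, 4.08, 4.19 and 3.87 at 6 h, and 6.44, 6.40 and 5.85 at 48 h. The 6 h arrays overlapped the lower end of the controls. AT1G78780 was the most even of these genes, with 6.27, 6.34 and 6.19 in control, 6.62, 6.69 and 6.73 at 6 h, and 8.06, 8.11 and 8.00 at 48 h. All 3 of its groups were separate, in the order control, 6 h, 48 h. AT5G38350 measured 5.26, 5.51 and 4.42 in control, 4.32, 4.58 and 5.04 at 6 h, and 6.95, 6.61 and 6.55 at 48 h. AT1G47271 measured 2.72, 2.99 and 2.56 in control, 2.13, 2.22 and 2.67 at 6 h, and 4.69, 4.68 and 3.78 at 48 h, with replicate 3 the lowest at 48 h. In both genes the 6 h arrays overlapped the controls from below.

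**Figure D2:**
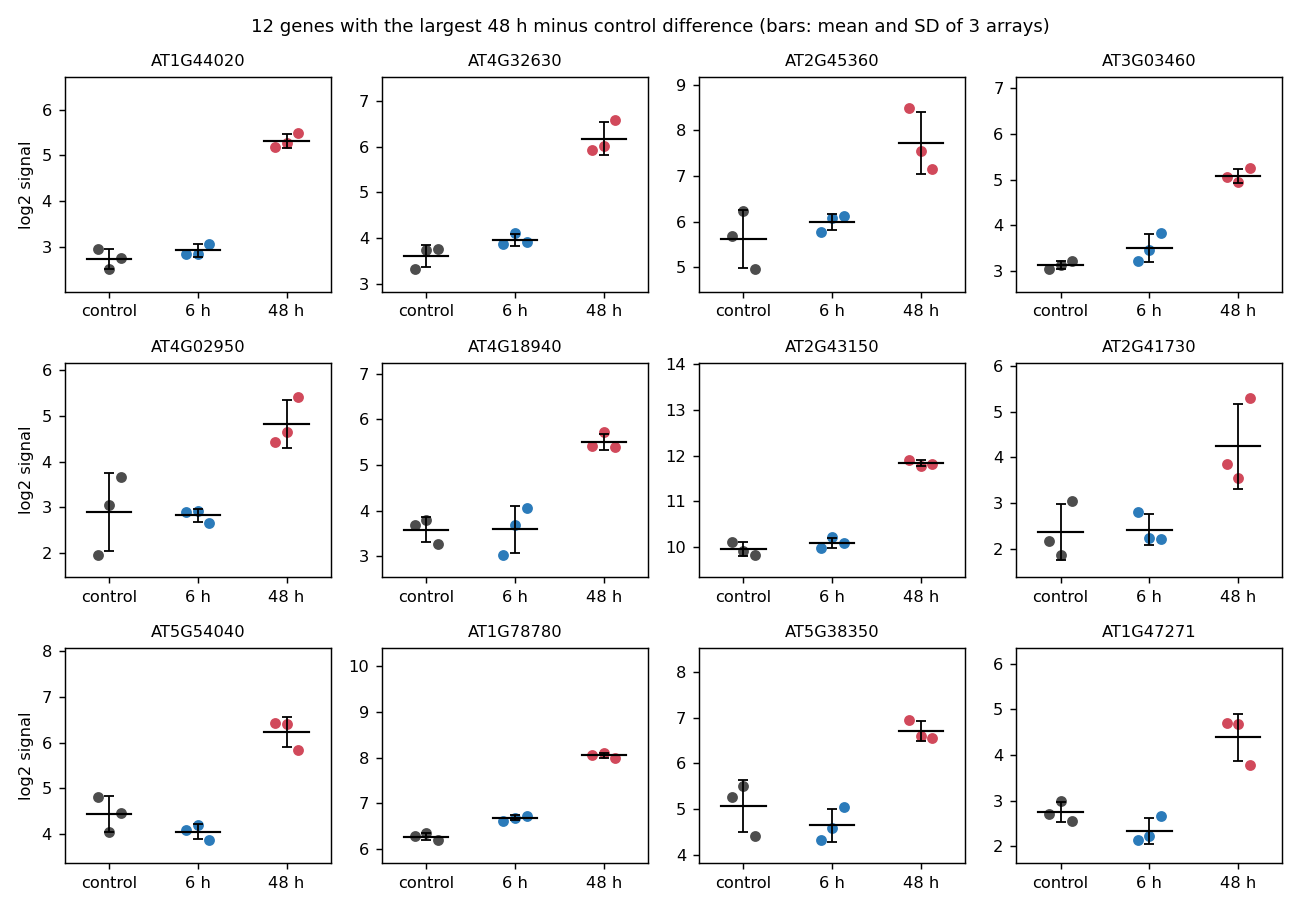
Log2 signal of the 12 members with the largest difference from control at 48 h, with 1 point for each array (grey control, blue 6 h, red 48 h) and the mean and SD of 3 arrays. Every panel spans the same range of log2 units; all red points lie above all others, as the choice required, and AT2G45360 and AT2G41730 show the wide spread at 48 h.

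The next 13 genes by size differed from control by 1.38 to 1.60 at 48 h. AT1G07560 went from a mean of 2.12 ± 0.36 (SD, n = 3) in control to 3.72 ± 0.14 at 48 h. AT3G27950 went from 2.77 ± 0.28 to 4.36 ± 0.76 (SD, n = 3). AT2G15880 had a high level throughout, at 8.91 ± 0.80 in control and 10.48 ± 0.51 at 48 h (SD, n = 3). Its control arrays were 9.23, 8.00 and 9.49, with replicate 2 well below the other 2. AT2G44380 went from 7.35 ± 0.13 to 8.89 ± 0.51 and AT5G61550 from 3.18 ± 0.22 to 4.70 ± 0.33 (SD, n = 3). AT3G57380 had little spread in these groups, at 4.16 ± 0.09 in control and 5.64 ± 0.07 at 48 h (SD, n = 3). The others were AT5G12450 (1.47), AT5G03230 (1.47), AT5G44380 (1.46), AT5G38340 (1.43), AT3G51360 (1.41), AT1G10990 (1.40) and AT3G53980 (1.38), as differences of 48 h minus control.

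Levels in control ran from 1.56 in AT2G14692 to 9.96 in AT2G43150, against 0.93 to 12.78 over all locus-named genes. The median control level was 4.74, against 3.72 over all locus-named genes, and 33 of the 100 genes lay below that median of 3.72. The quartiles of the control level were 3.19 and 6.19. After AT2G43150 the brightest controls were those of AT2G01008 (9.71), AT1G25275 (9.70) and AT4G12490 (9.61), with differences at 48 h of 0.95, 1.23 and 0.94. At the dim end AT5G41300 had 1.68 in control and 2.65 at 48 h. Array summaries of this kind compress differences of dim signals.

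The 48 h arrays cleared the highest of the other 6 arrays by a median of 0.45. In 12 genes this gap was at least 1, led by AT1G44020 (2.12) and AT4G32630 (1.82), and in 7 genes it was under 0.1. The highest of the other 6 values came from a control array in 60 genes and from a 6 h array in 40. Within the 48 h group replicate 3 was the highest array in 44 genes, replicate 1 in 37 and replicate 2 in 19. The median SD of the control, 6 h and 48 h arrays was 0.27, 0.16 and 0.27, against 0.26, 0.17 and 0.21 over all locus-named genes. AT2G31590 had the largest SD in control (1.33), with control arrays at 3.97, 1.67 and 3.97.

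The values at the edges of the choice show how fine its limits were. AT4G16770 (0.80), AT1G69325 (0.81) and AT2G18980 (0.81) were just inside the limit on the 48 h difference, and AT2G39300 and AT4G31960 (both 0.80 when rounded) and AT5G59470 (0.79) were just outside. At 6 h the genes nearest the limit were AT1G02770 (0.50), AT1G28580 (0.50) and AT5G43570 (-0.49) inside it, and AT1G59740 (-0.51), AT5G14940 (0.51) and AT2G03360 (-0.52) outside. On the order of the arrays AT5G37740, AT5G11640 and AT1G28580 were inside by gaps of 0.01, 0.02 and 0.04, and AT2G35910, AT1G02260 and AT3G46680 were outside with gaps of -0.02, -0.03 and -0.06. Of 590 locus-named genes at least 0.8 above control at 48 h, 121 were within 0.5 of control at 6 h. A further 99 met the other conditions but not that on 6 h, 46 of them above control there and 53 below.

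A linear model over all 16550 genes (limma, Benjamini-Hochberg adjustment, threshold 0.05) gives the same contrasts that chose the genes, so its counts are printed here for scale only. For 48 h against control it called 96 of the 100 genes higher, where 5.43% of all genes were called higher. The 4 genes not called were AT2G31590 (1.08, SE 0.46), AT1G52710 (1.00, SE 0.31), AT1G21326 (0.85, SE 0.27) and AT2G18980 (0.81, SE 0.31). With the replicate number as a block, 98 were called and only AT2G31590 and AT2G18980 were not. For 48 h against 6 h it called 87 higher, where 9.62% of all genes were called higher and 20.3% in either direction. For 6 h against control limma called 0 of the 100 genes, where 27.4% of all genes were called (14.2% higher), and 12 of the 100 had an unadjusted p under 0.05. All 3 arrays at 48 h lay above the other 6 in 3.87% of all genes.

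A small difference at 6 h is not shown to be no difference. The 95% limma interval of 6 h minus control reached a median of 0.45 to either side, and it lay wholly inside the limits of 0.5 for 10 of the 100 genes. It reached beyond the upper limit in 53 genes and beyond the lower one in 47. By the order of the arrays, 77 genes had overlapping 6 h and control arrays, 15 had every 6 h array above every control, and 8 had every 6 h array below every control. Over all genes 18.7% had every 6 h array above and 21.6% every 6 h array below. The limit of 0.5 at 6 h leaves out genes with wider separation, so the counts of 15 and 8 are partly fixed by the choice.

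Among the 15 genes with separate and higher 6 h arrays were AT4G32630, AT1G78780, AT1G14210, AT1G27190 and AT1G67520, with 6 h differences of 0.36, 0.41, 0.34, 0.46 and 0.44. Their median difference grew from 0.41 at 6 h to 1.07 at 48 h. The 8 genes with separate and lower 6 h arrays were AT1G07560, AT3G27950, AT2G44380, AT5G61550, AT4G01910, AT3G01950, AT1G33900 and AT4G37520. Their median went from -0.43 at 6 h to 1.39 at 48 h. AT4G37520, with control arrays at 5.97, 5.94 and 5.93, 6 h arrays at 5.59, 5.54 and 5.58 and 48 h arrays at 6.64, 6.60 and 7.03, shows this order with little spread. Its levels ran 6 h, control, 48 h, and no arrays of different groups overlapped.

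**Figure D3:**
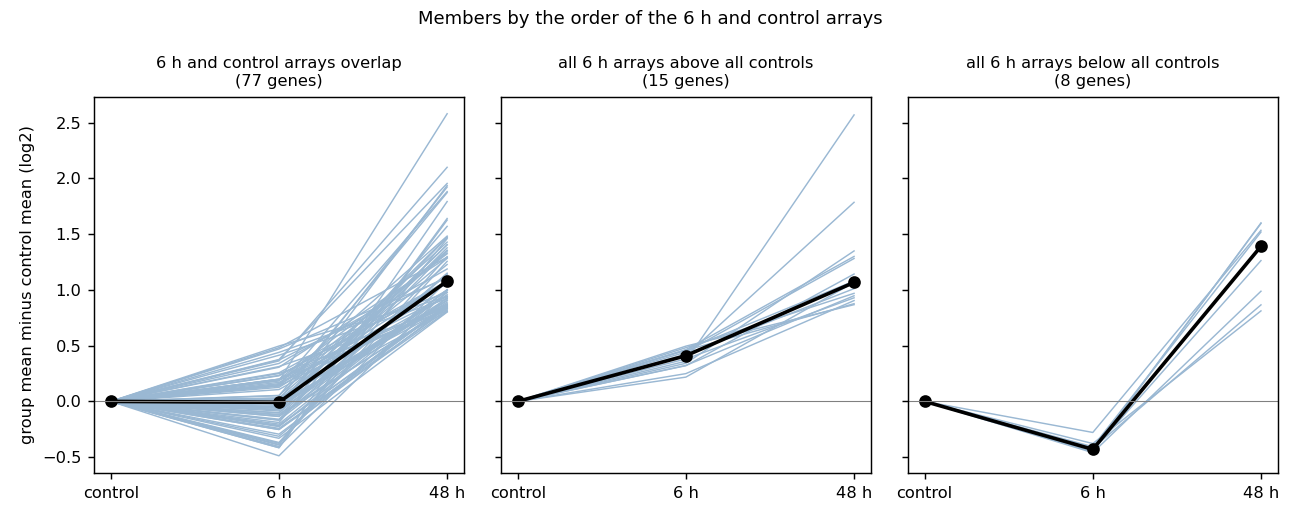
Group mean minus control mean (log2) for each member (thin lines) and the median over members (black), split by whether the 6 h arrays overlapped the control arrays (77 genes), lay above all of them (15) or below all of them (8). The black line is near 0 at 6 h in the first panel, at 0.41 in the second and at -0.43 in the third.

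The scaling of the arrays bears on which genes meet the condition at 6 h. Over all 38408 entries the array medians were 3.80 to 3.93 in control, 4.17 to 4.25 at 6 h and 4.00 to 4.10 at 48 h. When each array was centred on its median, the same conditions took 67 genes, 40 of them among the 100. The median difference of all genes then moved from -0.10 to -0.46 at 6 h and from -0.06 to -0.25 at 48 h. After centring, limma called 27 of the 100 genes lower at 6 h, where it called 41.5% of all genes lower. With renewed quantile normalization 76 genes met the conditions, 58 of them among the 100, and 9 of the 100 were called lower at 6 h, where 21.1% of all genes were. The choice thus depended on the scaling for 60 of the 100 genes. The 25 largest differences at 48 h kept their sign under both scalings, but shifts of this size could not have reversed differences so large.

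The conditions were also applied without each array in turn. In all of these 9 trials and under both other scalings 29 genes met them, and 71 failed at least once. Of the 25 genes with the largest differences 13 were among the 29, namely AT1G44020, AT4G32630, AT4G18940, AT2G43150, AT2G41730, AT1G78780, AT3G57380, AT5G12450, AT5G03230, AT5G38340, AT3G51360, AT1G10990 and AT3G53980. Smaller ones included the neighbours AT2G02060 and AT2G02061. Leaving out control replicate 3 had the largest effect on the set, with 140 genes meeting the conditions and 75 of the 100 kept.

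**Figure D4:**
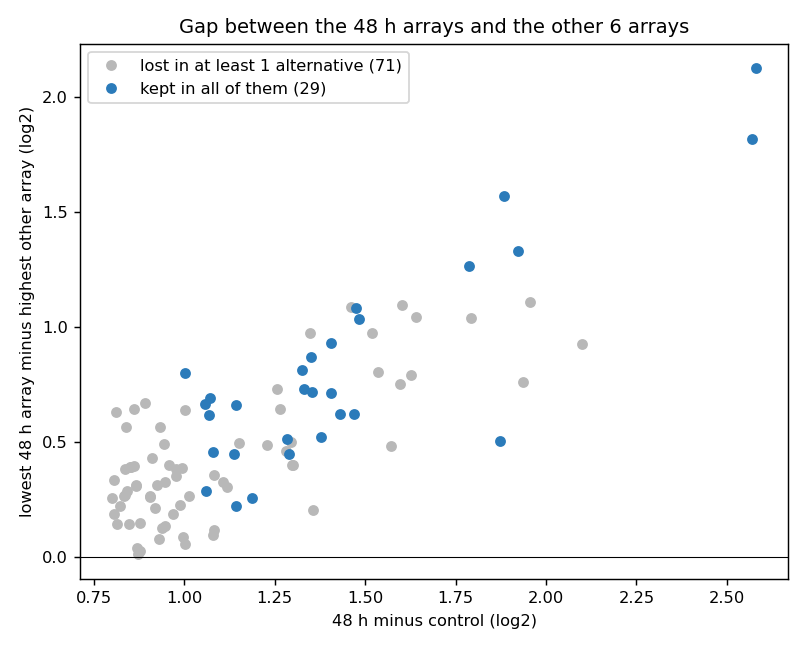
Difference from control at 48 h (horizontal axis, log2) and gap between the lowest 48 h array and the highest of the other 6 arrays (vertical axis, log2) for the 100 members. Blue points (29) met the conditions again without each array in turn and under both other scalings, and grey points (71) failed at least 1 of these 11 trials; AT1G44020 and AT4G32630 are the pair at the upper right.

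Relatives could be looked up by name for PRN2 and TBL40 only. Pirins are cupin-fold proteins. Arabidopsis PRN1, listed as PRN, is known to bind the alpha subunit of the heterotrimeric G protein, and PRN2 to bind the xylem protease XCP2. PRN2 measured 6.62, 7.05 and 7.17 in control, 6.57, 6.52 and 7.10 at 6 h, and 7.56, 7.99 and 7.84 at 48 h. Its 48 h arrays were high, and control and 6 h overlapped. The difference from control was 0.85 (SE 0.21) at 48 h and -0.21 at 6 h. PRN measured 3.03, 2.83 and 3.25 in control, 7.85, 7.46 and 7.88 at 6 h, and 2.69, 2.93 and 2.92 at 48 h. It was high at 6 h alone, by 4.69 (SE 0.18, limma adjusted p = 8.92e-09), and at 48 h its difference was -0.19 (SE 0.18, limma adjusted p = 0.574). PRN was looked up after PRN2 was seen among the members, and no other tested gene carried a pirin name in the reference used here. PRN2 met the conditions under neither other scaling, where its difference at 48 h fell below 0.8.

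TBL40 belongs to a plant family whose studied members add acetyl groups to cell wall polysaccharides. It measured 7.65, 7.87 and 8.05 in control, 8.42, 8.34 and 8.04 at 6 h, and 8.83, 8.63 and 8.85 at 48 h. The 48 h arrays were the highest, and a 6 h array reached into the control range. The difference from control was 0.41 (SE 0.18) at 6 h and 0.92 (SE 0.18) at 48 h. Another 24 genes of the family, taken by name after TBL40 was seen, had a median difference of -0.14 at 48 h, against -0.06 over all genes. By limma 0 of the 24 were higher at 48 h, where 5.43% of all genes were, and 2 were lower, where 5.22% were. The 2 were TBL37 (-1.07, SE 0.18, limma adjusted p = 0.00206) and the family's founding gene AT5G06700, listed as TRICHOME BIREFRINGENCE (-0.92, SE 0.19, limma adjusted p = 0.00647). At 6 h 3 of the 24 were higher than control, where 14.2% of all genes were, and 1 was lower, where 13.2% were. The higher ones were TBL24 (1.52, limma adjusted p = 7.27e-05), TBL37 (1.39, limma adjusted p = 7.79e-05) and TBL26 (0.70, limma adjusted p = 0.011), and the lower one was TBL38 (-1.17, limma adjusted p = 0.00074). TBL26 was not called after centring, after renewed quantile normalization or without 6 h replicate 1.

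Genes that carried a symbol and met the same conditions numbered 17 of 1805 (0.942%), against 100 of 14745 locus-named genes (0.678%) and 315 of all 38408 entries (0.820%). They too are chosen by value and are named here for their known roles. How common these roles are among the 1805 genes was not counted. ICL, the isocitrate lyase of the glyoxylate cycle, measured 3.38, 3.52 and 2.74 in control, 3.25, 3.21 and 3.32 at 6 h, and 5.28, 5.90 and 4.86 at 48 h. Its difference from control at 48 h, 2.14 (SE 0.26), was exceeded by only AT1G44020 and AT4G32630 of the 100. GI (GIGANTEA), a protein of the circadian clock and of flowering time, measured 8.35, 7.89 and 7.69 in control, 7.70, 7.82 and 7.42 at 6 h, and 9.26, 9.07 and 8.78 at 48 h. The 48 h arrays of both genes were clear of the rest, and control and 6 h overlapped. Enzymes of conjugation and oxidation among the 17 were the tau glutathione transferase GSTU15 (1.50), the cytochrome P450 CYP71B29 (1.37), the glucosyltransferase UGT73B5 (0.97) and the copper amine oxidase CuAO1 (0.88), as 48 h minus control. Those of sugars and cell walls were the fructan exohydrolase cwINV6 (1.18), the glycosyl hydrolase GH9C1 (1.12), the sucrose phosphate synthase ATSPS4F (1.08), the class V chitinase ChiC (1.04) and the sugar transporter SWEET4 (0.92). The transcription factors bHLH115 (1.16) and SMZ (0.96) and the prenylated RAB acceptors PRA7 (0.95) and PRA1.B6 (0.92) were also there, with SUFE2 (0.95) and the plantacyanin ARPN (0.92).

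**Figure D5:**
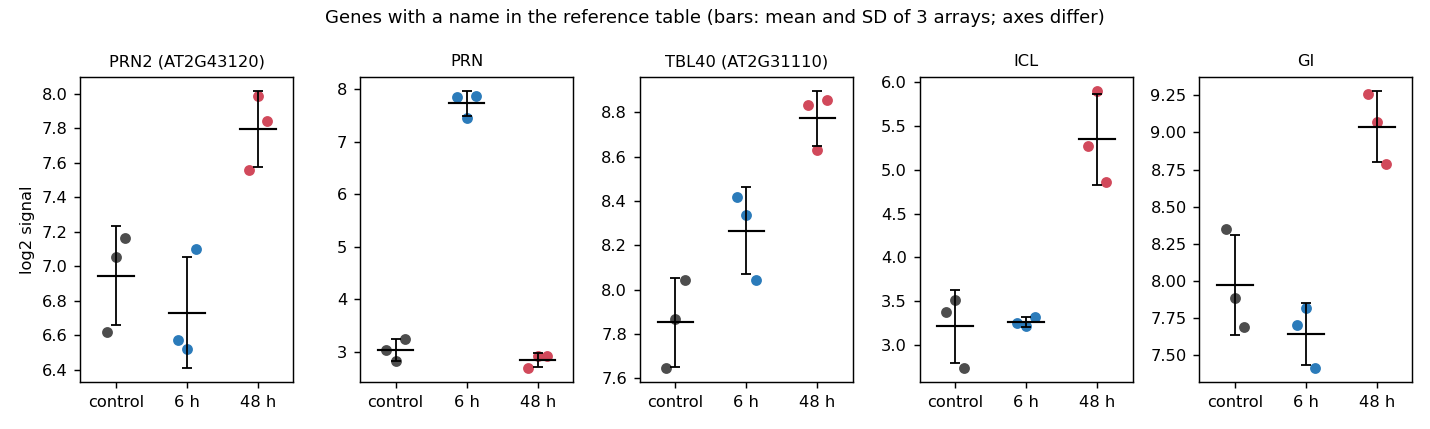
Log2 signal of the members PRN2 and TBL40, of PRN, and of ICL and GI, which carry a symbol and met the same conditions, with 1 point for each array and the mean and SD of 3 arrays (axes differ between panels). PRN is high at 6 h alone, and the other 4 genes are highest at 48 h.

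The chromosomes held unequal shares of their locus-named genes. Chromosome 2 had 26 members of 2253 genes (1.15%), chromosome 4 had 15 (0.694%), chromosome 1 had 25 (0.648%), chromosome 3 had 17 (0.561%) and chromosome 5 had 17 (0.494%). The members with the largest difference on each were AT1G44020, AT2G45360, AT3G03460, AT4G32630 and AT5G54040. These shares are given without a test.

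Of 97 members placed on the RefSeq table, AT2G02060 and AT2G02061 were direct neighbours among coding genes. AT2G02060 measured 4.87, 4.98 and 5.71 in control, 5.03, 5.39 and 4.83 at 6 h, and 6.27, 6.15 and 6.54 at 48 h. AT2G02061 measured 2.12, 1.90 and 2.07 in control, 2.20, 2.32 and 2.23 at 6 h, and 2.94, 3.20 and 3.16 at 48 h. Both were high at 48 h in every array, by 1.14 (SE 0.24) and 1.07 (SE 0.16). Another 3 pairs had 1 coding gene between them. AT5G38340 (1.43) and AT5G38350 (1.64) flanked AT5G38344, with 0.36 (SE 0.16, limma adjusted p = 0.199). AT4G01910 (1.26) and AT4G01920 (1.08) flanked AT4G01915, with -0.44 (SE 0.24, limma adjusted p = 0.29). AT1G07560 (1.60) and AT1G07590 (1.15) flanked the gene APK1A, with -0.65 (SE 0.24, limma adjusted p = 0.106). In none of these 3 cases did the gene in between pass the test.

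The direct neighbours of the members were also read, leaving out those that are members themselves, which sets aside genes chosen for high values. Of 125 such genes that were measured, limma called 13 higher at 48 h than in control (10.4%) and 4 lower (3.2%), where 4.88% and 5.25% of the 16450 genes that are no members were called. Their median difference was 0.03, against -0.06 over all genes. AT5G10040, beside AT5G10050, rose by 4.62 (SE 0.24, limma adjusted p = 2.95e-07) and was also up at 6 h by 2.34. AT5G10050 itself measured 6.13, 6.35 and 6.22 in control, 5.89, 6.27 and 6.13 at 6 h, and 7.14, 7.20 and 7.36 at 48 h, so that its 6 h arrays overlapped the controls. AT1G33910, beside AT1G33900, rose by 2.76 (SE 0.31, limma adjusted p = 9.56e-05), with -0.62 at 6 h.

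On chromosome 2 AT2G43110, AT2G43120 (PRN2), AT2G43140 and AT2G43150 lie in 1 stretch, with AT2G43130 not analysed here, and all 4 were higher at 48 h. The non-members AT2G43110 (5.22 ± 0.16 in control and 6.32 ± 0.14 at 48 h, SD, n = 3, limma adjusted p = 0.0013) and AT2G43140 (1.65, SE 0.19, limma adjusted p = 0.000126) were also higher at 6 h, by 2.20 and 1.31. The members PRN2 (0.85) and AT2G43150 (1.88) had -0.21 and 0.14 at 6 h. This stretch was picked after its values were seen. AT4G15680 (1.35) lay between AT4G15670, which rose by 1.63 (SE 0.26, limma adjusted p = 0.00137), and AT4G15690, which fell by 1.63 (SE 0.19, limma adjusted p = 0.000112). Neighbouring genes can be close copies that share probes, and values of such copies are uncertain.

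Gene lists for known processes of dark-treated and stressed leaves consist, among those measured, mostly of genes with a symbol. Such genes could not be members whatever their values, and the lists are given as context. Of 15 amino acid breakdown genes 7 were measured, with a median of -0.19 at 48 h against -0.06 over all genes. By limma 1 of them was lower (5.22% of all genes were), MCCB of leucine breakdown (-0.76, SE 0.21, limma adjusted p = 0.0322), and none was higher. At 48 h MCCB was not called in 7 of 18 alternative fits, with adjusted p up to 0.124. These were without control replicate 1 or 2, 6 h replicate 1, or 48 h replicate 2 or 3, over all entries, and in the 2 groups alone. At 6 h MCCB (-3.69), LKR (-3.24), BCKDH_E1A (-2.74), ETFQO (-2.36) and PPDK (-1.34) were called lower than control, where 13.2% of all genes were. D2HGDH and ETFA were not called at 6 h. Of 13 genes of beta-oxidation and the glyoxylate cycle 2 were measured. At 48 h 1 of them, ICL, was higher, where 5.43% of all genes were. ICL is 1 of the 17 genes chosen by value above. AIM1 had -0.00 (SE 0.17, limma adjusted p = 0.995). Of 20 leaf senescence genes 4 were measured (SAG101, WRKY6, EIN3 and SWEET15), with a median of 0.21 and none called in limma at 48 h. At 6 h EIN3 (-0.78) and SWEET15 (-0.63) were called lower, where 13.2% of all genes were. Of 10 ER stress genes 3 were measured (BIP1, BZIP60 and ERDJ3B), with a median of 0.05 and none called at 48 h. At 6 h BIP1 (0.55, limma adjusted p = 0.0473) was called higher, where 14.2% of all genes were. Its control mean was dim (2.19), and the 6 h array medians lay above those of control, as given above. Whether this call holds in the alternative fits is not given here. Of 8 jasmonate genes 1, PDF1.2 (-0.08 at 48 h), was measured and called at neither time. No entry of its own was listed for any of 8 dark-induced and 17 salicylic acid defence genes, which were not analysed here.

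Cell type markers were measured in part. RCA, the Rubisco activase of mesophyll, was bright in all 9 arrays of this leaf material, with 9.90 ± 0.21 (SD, n = 3) in control, 9.32 ± 0.14 after 6 h and 8.48 ± 0.19 after 48 h. FAMA, a regulator of guard cells, had 5.70 ± 0.22 (SD, n = 3) in control, 6.90 ± 0.12 after 6 h and 6.32 ± 0.09 after 48 h. Both differed from control at 48 h (limma adjusted p = 0.000208 and 0.0326). RCA kept its call in all 18 alternative fits. FAMA lost it in 10, which were both other scalings, the 2 groups alone, and the fits without control replicate 1 or 2, 6 h replicate 1 or 2, or any 1 of the 48 h arrays, with adjusted p up to 0.117. Of the 17 named markers these 2 were measured, and none of the 9 for phloem, xylem, epidermis with trichomes and myrosin cells. The part of cell composition in the values of the 100 genes was not tested.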

How the data were processed

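The deposited values are log2 signals of probe sets on 9 arrays. They were made by the authors with RMA from the oligo package, as far as tools listed by the submitters' processing notes tell, where limma is also listed and no version is. RMA subtracts background, makes the arrays' distributions alike and combines the probes of a set in log2 units. The medians of the deposited arrays still differed, from 3.80 in a control array to 4.25 in a 6 h array. That the scale is log2 was read from the values, which ran from 0.298 to 13.9. The genome build used by the authors is not given in the sources used here. Coordinates are left out for this reason.

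A table of probe sets and genes gave 16722 entries with 1 gene, 759 with several genes (not used) and 20927 not listed (unnamed here). The entry with the highest mean was kept for each gene, which left 16550 genes. None of the 100 members had a further entry. Names came from the RefSeq table, where 16411 genes were found.

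All 9 arrays were fitted with limma 3.58.1 in R 4.3.3, with 1 mean per group, with two-sided p-values adjusted by Benjamini-Hochberg over all 16550 genes and called at 0.05. The fit was tested on simulated data. With 3 arrays per group their number limits the precision. The replicate numbers paired control and 48 h by the correlation of deviations (0.302, 0.242 and 0.539), as a property of the data, since no label states what replicates of 1 number have in common. For control and 6 h the correlations were 0.034, -0.032 and 0.012.

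Named were the 25 members with the largest difference at 48 h (12 with every value), those at the edges of the conditions, those with a name or a neighbour among the members, and those extreme in level or spread. Which neighbours and relatives to name was decided with their values in view. The members, lists and rules were chosen with earlier results of these data known. Promoter motifs were not examined, and no sequence is printed.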

Additional observations from a re-analysis of the deposited data

Results flagged for a closer look

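PRN differed between 48 h and 6 h by -4.89 in limma, high at 6 h and -0.19 from control at 48 h, while its relative PRN2 was high at 48 h. Of the 100 genes 87 differed between 48 h and 6 h in limma, which the choice of the genes largely fixes, since it asked for higher values at 48 h and for small differences at 6 h. Among the 20927 entries with no listed gene, which enter no comparison here, 192 (0.917%) met the same conditions on their values.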

How the results depend on the processing

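The set of 100 genes became 59 with a minimum of 1.0 at 48 h and also 59 with a maximum of 0.3 at 6 h, and ranged from 98 to 140 when single arrays were left out, with 75 to 97 of the 100 kept. For 48 h against control, 81 to 96 of the 100 were called without single arrays, 83 after centring and 98 with the replicate number as a block (also 98 in the control and 48 h arrays alone, an alternative added after seeing the data). For 48 h against 6 h the left-out arrays gave 71 to 91. The count of 0 at 6 h became 27 after centring and 9 after renewed quantile normalization, all lower, where 41.5% and 21.1% of all genes were lower. Without low genes 3 of 72 members were called, all higher, beside 4016 of 8275 genes. An intensity trend gave 2 higher, array weights 4 higher and 2 lower, and the replicate block 2 higher. Of all 16550 genes these called 4564, 4861 and 5027. Without single arrays 0 to 7 members were called, beside 3575 to 4649 of all genes. The cause was not tested beyond the shift of all genes. All genes called at 48 h numbered 1762, and 1256 to 2138 without single arrays, with 3824 over all entries, where more features were tested. Their split of 898 higher and 864 lower became 510 and 1700 after centring, 645 and 1272 after renewed quantile normalization, and 2274 and 1550 over all entries. Of the list genes 2 were called at 48 h, and 1 to 2 without single arrays, ICL in each of them. Of 53 named results, 48 kept their call in up to 18 alternatives, 5 lost it in at least 1, and none reversed. Most of them are members, or genes with a symbol that met the same conditions, at 48 h against control. Those genes were chosen by that difference, so their kept calls are largely fixed by the choice. The rest are relatives, neighbours, and list genes and markers at 48 h. FAMA lost its call in 10, MCCB in 7 and TBL26 in 3, as given with their values. PRN2 lost its call after centring and without control replicate 1, 48 h replicate 2 or 48 h replicate 3, and AT2G15880 without 48 h replicate 3. The replicate block changed no call of these 53. Alternatives planned for groups by function and for promoter motifs were not run, since descriptions and promoter sequences were not used here.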
